A study of Mus musculus with 6 samples.

Results

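Mitochondrial protein import was described in mouse splenic plasma cells sorted as IgM or as IgG1. The genes were those whose symbol starts with Timm or Tomm and a digit, plus Mtch1 and Mtch2, with symbols of pseudogenes left out. Of 24346 symbols 27 matched, and 24 of them reached 1 FPKM (fragments scaled to transcript length and mapped depth) in 3 or more of the 6 libraries, out of 9087 genes that did so. Of the other 3, Timm8a2 and Tomm20l were listed at 0 in every library, and the antisense RNA gene Tomm6os had 0.886, 0.849 and 0.571 FPKM in IgM, against 1.25, 0.946 and 1.92 FPKM in IgG1 libraries. Mtch1 and Mtch2 are named mitochondrial carrier homologs, but the metabolite carriers themselves (Slc25a genes) were not taken by this choice and were counted as a list of their own.

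The 3 IgM and 3 IgG1 libraries came from the same design. Congenically marked B1-8germ B cells, which carry a rearranged heavy chain that recognises the hapten NP, were given to C57BL/6J wild-type hosts immunised with NP-CGG in alum, and donor cells of each isotype were sorted from the spleen at day 7. No untreated or unimmunised group was analysed here, and the labels give neither the animals' ages nor whether each library stands for an animal of its own. Isotype was taken from the labels and was not checked, since Ighm and Ighg1 were not analysed here.

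Almost all mitochondrial proteins are made in the cytosol and carried across or into the mitochondrial membranes. The TOM complex of the outer membrane is the common entrance. From it, proteins with a cleavable presequence pass to the TIM23 complex and its matrix motor, while the many-spanning carriers are escorted by small TIM chaperones of the intermembrane space to the TIM22 complex. MTCH1 and MTCH2 sit in the outer membrane, where human MTCH2 inserts helical membrane proteins. Plasma cells, which secrete antibody at a high rate, draw on mitochondrial ATP.

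Summed FPKM of all symbols ran from 730695 to 806599 over the IgM and from 855123 to 914019 over the IgG1 libraries. Of the tested genes 27 to 60 were at 0 in an IgM library and 74 to 288 in an IgG1 library. All 8 plasma cell markers passed the low-value filter, with sums of 44301 to 50167 FPKM in IgM and 36772 to 39346 in IgG1 libraries. Of these, Jchain, Tnfrsf17, Prdm1, Irf4 and Slamf7 were called higher in IgM (adjusted p under 0.05 with limma), among them Jchain at 26835 ± 1900 in IgM and 15751 ± 1406 FPKM in IgG1 and Tnfrsf17 at 623 ± 79.0 in IgM and 81.9 ± 14.8 FPKM in IgG1 libraries (SD, n = 3 each). Xbp1 was lower in each IgM library without passing (log2 -0.25, adjusted p = 0.136), and Sdc1 and Mzb1 overlapped. Of 6 B cell markers 3 passed (sums of 131 to 161 in IgM and 106 to 136 in IgG1) and Pax5 was at 0 throughout. T cell markers (1 of 6 past the filter) summed to 0.489 to 2.69 FPKM in IgM and 1.13 to 4.44 in IgG1, and erythroid markers (1 of 5) to 0.618 to 2.56 in IgM and 0.914 to 2.80 in IgG1 libraries. Myeloid markers (2 of 6) summed to 5.88 to 10.7 in IgM and 0.187 to 6.08 in IgG1 libraries. Of these Csf1r lay above all IgG1 libraries in each IgM library (2.14, 1.11 and 1.56 in IgM, against 0, 0 and 0.0162 FPKM in IgG1) and Lyz2 overlapped (log2 1.71), and neither passed (adjusted p = 0.0861 and 0.121 with limma). The defining granulocyte genes S100a8 and S100a9 and all 3 NK markers were at 0. Deviations from each gene's mean followed transcript length in opposite directions (Spearman rho across genes 0.15 to 0.30 in IgM and -0.24 to -0.15 in IgG1 libraries). Main results are therefore given also after removal of each library's trend over length and GC content. After that removal Jchain, Tnfrsf17 and Slamf7 were still called higher in IgM with limma. Prdm1 (log2 0.72, adjusted p = 0.0825) and Irf4 (0.39, adjusted p = 0.172) were not. In the 6 fits with 1 library left out and the trends kept, Jchain and Tnfrsf17 passed in 6, Irf4 in 4, Prdm1 in 2 and Slamf7 in 1. Other scalings of the libraries were tried as alternatives, and the part of the marker differences in the results was not tested.

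The promoters of the 3 genes that passed the test between isotypes (Mtch1, Timm10 and Timm50), and of Mtch2, the paralog of Mtch1, are shown as the sequence around the starts of the genes discussed first. They span 250 bases before to 50 after an annotated start, read 5′ to 3′ on the gene's strand, from RefSeq (GRCm38.p6). Mtch1 lies at chr17:29347883-29348182 (minus strand), Mtch2 at chr2:90846905-90847204 (plus), Timm10 at chr2:84826771-84827070 (plus) and Timm50 at chr7:28311997-28312296 (minus). Capitals mark matches on either strand to core motifs of factors known for nuclear-encoded mitochondrial genes: for NRF1 GCGCA and GCGC with any base between them, for ETS factors such as GABPA CCGGAAG, and for YY1 AAGATGGCG.
Mtch1: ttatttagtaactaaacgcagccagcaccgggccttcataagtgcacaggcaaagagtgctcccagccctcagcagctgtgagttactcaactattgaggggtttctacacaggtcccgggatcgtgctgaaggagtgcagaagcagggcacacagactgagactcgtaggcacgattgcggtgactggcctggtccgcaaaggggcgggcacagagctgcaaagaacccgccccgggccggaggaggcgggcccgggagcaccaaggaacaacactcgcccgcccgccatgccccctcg
Mtch2: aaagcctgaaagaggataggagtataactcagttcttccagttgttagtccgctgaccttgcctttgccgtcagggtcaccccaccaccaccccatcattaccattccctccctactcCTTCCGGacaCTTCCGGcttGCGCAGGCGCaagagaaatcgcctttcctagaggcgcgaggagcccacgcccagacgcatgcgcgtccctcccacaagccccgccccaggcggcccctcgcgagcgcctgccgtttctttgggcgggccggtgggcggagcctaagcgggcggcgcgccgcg
Timm10: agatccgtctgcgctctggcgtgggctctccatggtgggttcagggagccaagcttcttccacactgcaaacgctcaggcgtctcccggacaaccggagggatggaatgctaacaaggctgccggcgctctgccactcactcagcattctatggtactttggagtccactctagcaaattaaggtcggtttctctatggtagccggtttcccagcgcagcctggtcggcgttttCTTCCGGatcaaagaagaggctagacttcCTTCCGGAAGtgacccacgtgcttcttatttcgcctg
Timm50: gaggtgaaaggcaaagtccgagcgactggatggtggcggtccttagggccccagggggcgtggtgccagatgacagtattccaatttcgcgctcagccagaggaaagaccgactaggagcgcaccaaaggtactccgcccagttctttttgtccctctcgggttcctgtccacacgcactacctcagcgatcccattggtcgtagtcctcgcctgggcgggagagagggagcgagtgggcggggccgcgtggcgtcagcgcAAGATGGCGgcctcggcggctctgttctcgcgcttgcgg

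Neither window of Mtch1, which has a second start listed, held any of the 3 motifs. Mtch2 held an NRF1 core and 2 ETS cores, Timm10 held 3 ETS cores, of which 2 overlap in a palindrome, and Timm50 held a YY1 core just after its start. Over the 21 genes of the set with an entry, 8 (38.1%) held the ETS core, 3 (14.3%) the NRF1 core and 1 (4.76%) the YY1 core. Among the 7031 tested genes with an entry the shares were 24.5%, 13.6% and 4.54%, and among all 32851 promoters 8.86%, 4.60% and 1.40%. The import genes thus lay near the other expressed genes for NRF1 and YY1, and above them for ETS. Counts out of 21 genes are small, and the ETS difference was not tested. Timm21, Tomm40l and Tomm7 were the 3 without an entry.

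Across the set, 3 of 24 genes were lower in IgM than in IgG1 plasma cells (12.5%), namely Mtch1, Timm10 and Timm50, and 0 were higher. The call was an adjusted p under 0.05 with limma on log2(FPKM + 1), adjusted over all 9087 tested genes, of which 4.26% were lower and 1.76% higher in IgM. At an unadjusted p under 0.05 with limma, 10 of 24 were lower and 2 higher, against 11.9% and 10.2% of all tested genes, so the higher count was near the background. The median log2 fold change of the 24 genes was -0.32 (IgM minus IgG1), against 0.046 over all tested genes, and 20 of 24 were negative against 46.3% of all. In 10 of 24 genes (41.7%) every IgM library lay below every IgG1 library, against 13.7% of all tested genes. In 1 of 24, Tomm70a, every IgM library lay above, against 13.5% of all. With limma but without the low-value filter (24346 genes fitted) or without its intensity trend, 0 of 24 passed. At an unadjusted p under 0.05, 11 were lower and 1 higher without the filter, against 4.41% and 4.36% of the genes fitted, and 5 were lower and 1 higher without the intensity trend, against 9.01% and 9.97%. The unadjusted counts also changed with the scaling of the libraries. After quantile normalization 4 were lower and 0 higher, against 10.2% and 10.3% of the genes fitted. After rescaling to the same sum without Jchain, 3 were lower and 3 higher, against 5.93% and 19.4%. After median centring 12 were lower and 0 higher, against 14.4% and 7.79%. In these bulk samples, less RNA per cell and fewer cells with the transcript cannot be told apart.

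**Figure D1:**
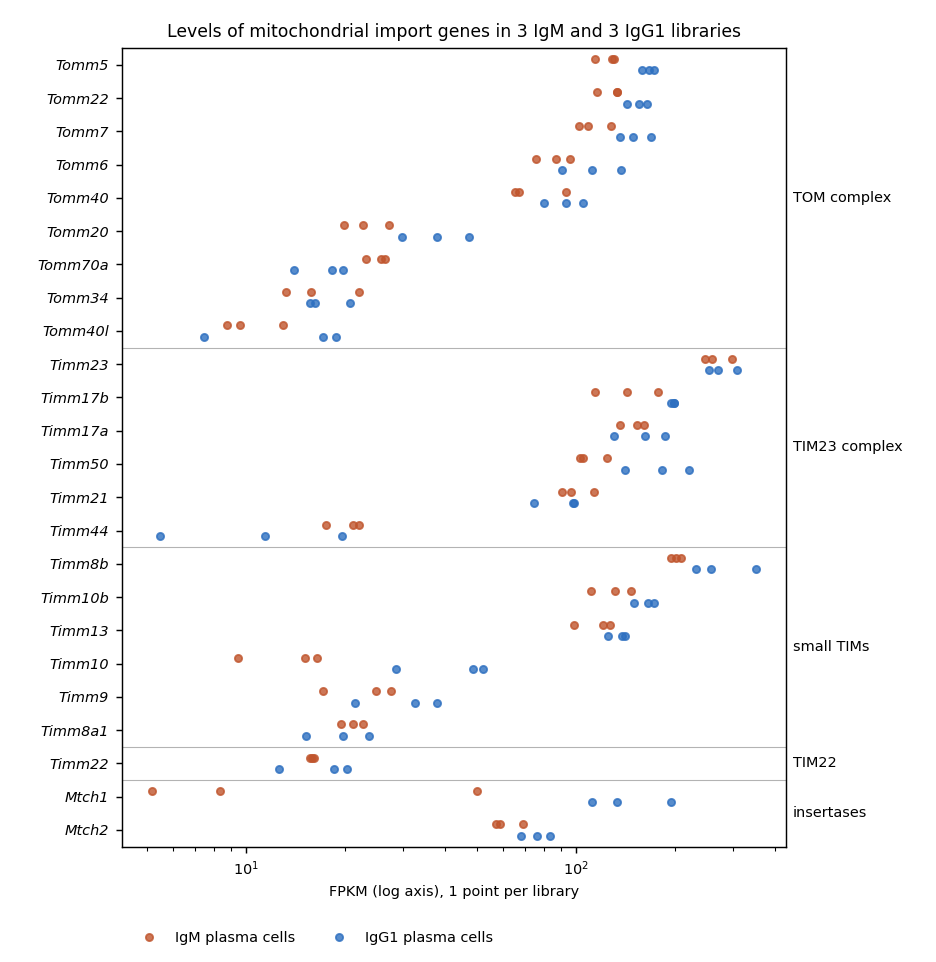
FPKM of the 24 import genes on a log axis, 1 point per library, with IgM (orange) above IgG1 (blue) in each row and genes ordered by complex and mean level. Mean levels over the 6 libraries run from 12.5 FPKM for Tomm40l to 272 for Timm23. In 10 of the 24 genes, among them Mtch1 and Timm10, the IgM points lie left of all IgG1 points, against 13.7% of all tested genes.

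After removal of the length and GC trends, Mtch1 and Timm10 were the 2 genes called (8.33% of 24), both lower in IgM, against 2.04% of the 8765 genes fitted, and again 0 were higher, against 0.924%. The set's median was then -0.18, against -0.024 over all genes, and 19 of 24 were negative against 52.1%. The import transcripts were short, with a median of 1563 nt against 2488 nt for all tested genes. The 8 of them under 1000 nt had a median log2 fold change of -0.38, close to the -0.33 of the 945 tested genes under 1000 nt. The other 16 had a median of -0.29, where the 7820 tested genes of 1000 nt or more had 0.089.

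**Figure D2:**
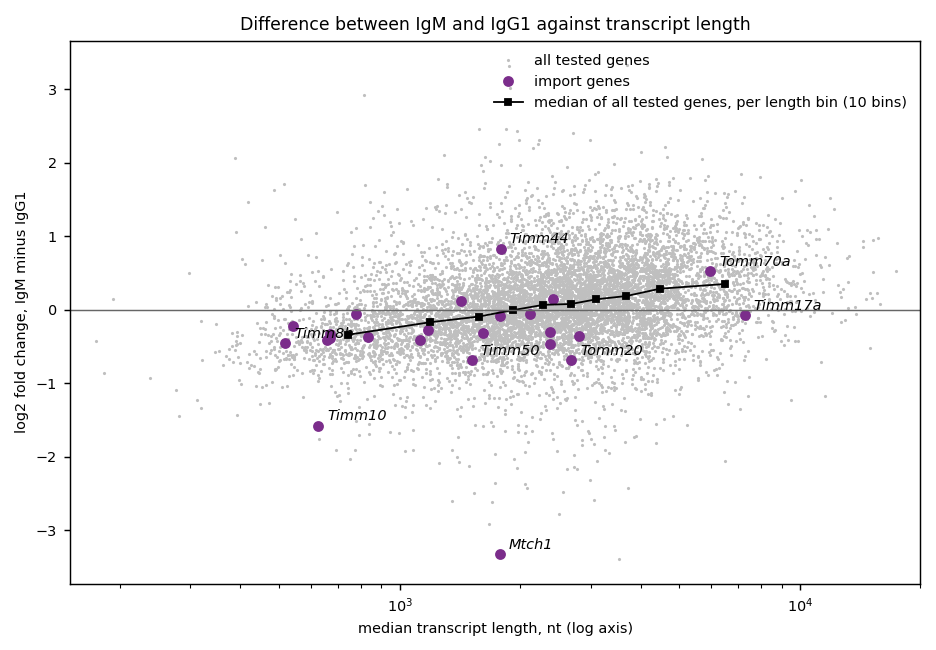
Log2 fold change (IgM minus IgG1) against median transcript length on a log axis for all tested genes (grey), their median in each of 10 length bins (black line) and the import genes (purple). The black line climbs from below 0 for short to above 0 for long transcripts, and Mtch1 and Timm10 lie far below it.

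Mtch1 showed the widest difference. Its FPKM was 5.19, 8.38 and 50.1 in IgM libraries 1 to 3, against 112, 134 and 195 in IgG1 libraries 1 to 3. The groups did not overlap, although IgM library 3 was 9.65 and 5.98 times the level of IgM libraries 1 and 2. The mean was 21.2 ± 25.1 in IgM and 147 ± 42.9 FPKM in IgG1 cells (SD, n = 3 each), a ratio of means of 6.91 in favour of IgG1. The log2 fold change was -3.32 (SE 0.58, adjusted p = 0.00923 with limma). This was the second most negative log2 fold change of the 9087 tested genes. It kept its call when any 1 library was left out (highest adjusted p 0.0486), with log2 fold changes between -4.24 without IgM library 3 and -2.71 without IgM library 1, and after removal of both trends (-3.15, adjusted p = 0.0159). With robust moderation of the variances, which lets single genes keep a large spread, its adjusted p was 0.0840. Mtch1 lies on chromosome 17 from 29332072 to 29347934 (GRCm38) and its exons overlap no other annotated gene.

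Mtch2 was at 58.8, 69.2 and 57.1 FPKM in IgM, against 83.4, 76.5 and 68.4 in IgG1 libraries. The lowest IgG1 library lay just under the highest IgM library, and the log2 fold change of -0.30 (95% interval -0.64 to 0.05) did not pass (adjusted p = 0.298 with limma). With the trends removed the log2 fold change of Mtch2 was larger, at -0.51 (95% interval -0.85 to -0.17), and again did not pass (adjusted p = 0.106). The ratio of Mtch1 to Mtch2 FPKM was 0.0883, 0.121 and 0.877 in IgM, against 1.34, 1.75 and 2.85 in IgG1 libraries. By FPKM, Mtch1 was thus the less abundant paralog in each IgM library and the more abundant one in each IgG1 library.

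Among the small TIM chaperones, Timm10 was called. It encodes the partner of TIMM9 in the hexamer that carries hydrophobic precursors to TIM22. Its FPKM was 9.48, 16.5 and 15.2 in IgM, against 28.5, 52.3 and 48.8 in IgG1 libraries, so the groups did not overlap. The mean was 13.7 ± 3.71 in IgM and 43.2 ± 12.9 in IgG1 cells (SD, n = 3 each), 3.15-fold higher in IgG1 by the means (log2 -1.58, SE 0.29, adjusted p = 0.0115 with limma). With the trends removed it was at -1.25 (adjusted p = 0.0302), and leaving out IgM library 1 or IgG1 library 2 put it just over the threshold (-1.35 and -1.42, adjusted p = 0.0594 and 0.0541). Timm10 lies on chromosome 2 from 84826997 to 84830213, with exons clear of other annotated genes.

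Timm9 was at 27.6, 24.8 and 17.1 FPKM in IgM, against 21.4, 32.5 and 37.9 in IgG1 libraries, with overlapping groups (log2 -0.38, 95% interval -0.96 to 0.21, adjusted p = 0.454 with limma). The ratio of Timm10 to Timm9 was 0.344, 0.664 and 0.885 in IgM, against 1.33, 1.61 and 1.29 in IgG1 libraries. By FPKM the hexamer partners therefore stood in opposite order in the 2 isotypes: Timm10 below Timm9 in each IgM library and above it in each IgG1 library. Which of the 2 is higher depends on the transcript lengths used for FPKM. Annotated transcripts run from 529 to 2564 nt for Timm9, against 564 to 690 nt for Timm10. Exons of Timm9 overlap those of Tomm20l on the other strand, which was itself listed at 0.

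The other small TIMs did not pass the test. Timm8b, whose product forms a hexamer with TIMM13 for other precursors, was at 201, 209 and 194 FPKM in IgM, against 258, 352 and 232 in IgG1 libraries, without overlap (log2 -0.45, adjusted p = 0.101 with limma, and -0.16 with the trends removed). Timm10b, whose product ties the small TIMs to TIM22, was at 111, 147 and 131 in IgM, against 165, 150 and 173 in IgG1 libraries. These groups did not overlap either, but its log2 fold change of -0.33 (adjusted p = 0.190) was -0.0073 with the trends removed. Timm13 (-0.23) and Timm8a1 (0.12), the X-linked gene whose human counterpart is mutated in deafness-dystonia syndrome, had overlapping groups. Timm13 turned to 0.32 once the trends were removed. Exons of Timm8b, Timm10b and Timm13 overlap those of Nkapd1, Arfip2 and Tmprss9, and no source used here says that reads were counted by strand, so their values are uncertain to that extent, as are those of Timm17b, Tomm40l, Tomm6 and Tomm70a, which share exon sequence with Gm10491, Nr1i3, Usp49 and Nit2. Timm22, the pore of the carrier translocase, was at 15.6, 16.1 and 15.8 FPKM in IgM, against 20.2, 12.6 and 18.5 in IgG1 libraries (log2 -0.079, 95% interval -0.65 to 0.50).

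**Figure D3:**
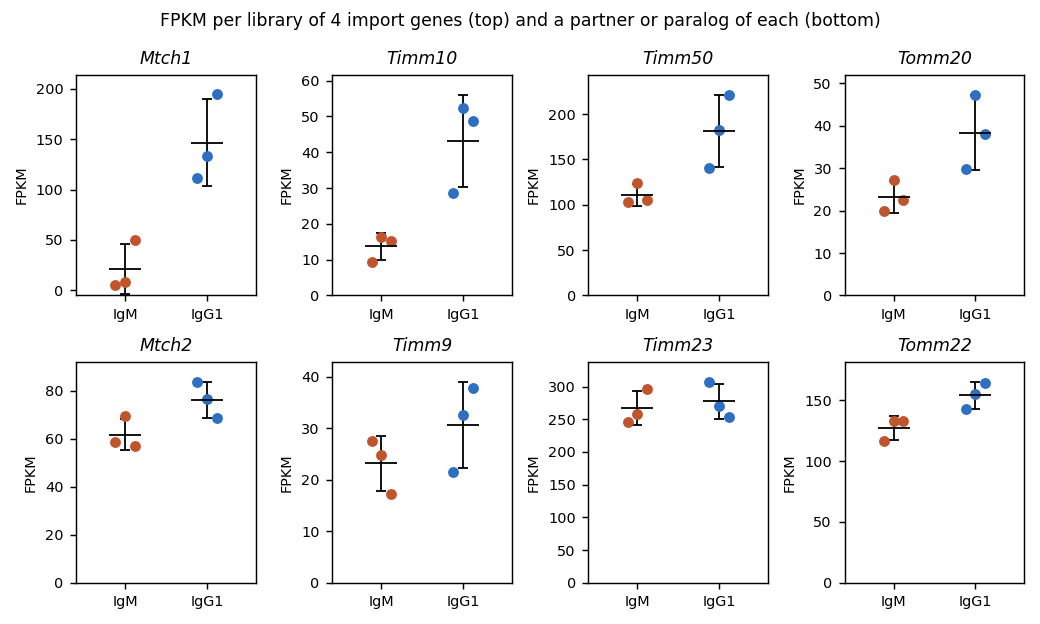
FPKM per library of Mtch1, Timm10, Timm50 and Tomm20 (top) and of a partner or paralog of each (bottom), with IgM left of IgG1; bars are the mean and SD of 3 libraries. Mtch2, Timm9 and Timm23 overlap between the isotypes, while the 4 genes of the top row and Tomm22 in the bottom row do not.

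In the TIM23 complex, Timm50 was called. Its product is the receptor that takes presequence proteins from the TOM complex. Its FPKM was 103, 124 and 105 in IgM, against 141, 183 and 221 in IgG1 libraries, with no overlap. The mean was 111 ± 11.7 in IgM and 182 ± 40.0 in IgG1 cells (SD, n = 3 each), 1.64-fold higher in IgG1 by the means (log2 -0.69, SE 0.17, adjusted p = 0.0357 with limma). With the trends removed it was at -0.48 (adjusted p = 0.0965). It also missed the threshold without IgM library 1 or 3 or without IgG1 library 2 or 3 (log2 -0.67 to -0.54, adjusted p 0.0957 to 0.153). Timm50 lies on chromosome 7 from 28305516 to 28312072.

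The other 5 genes of the complex did not pass the test. Timm23, the most abundant of the set, was at 246, 258 and 297 FPKM in IgM, against 307, 270 and 254 in IgG1 libraries (log2 -0.053, 95% interval -0.32 to 0.22), a difference smaller than the spread between libraries. Its log2 fold change was 0.17 with the trends removed (adjusted p = 0.505 with limma). Timm17a and Timm17b encode alternative forms of the subunit beside TIMM23. Timm17b was at 115, 177 and 143 FPKM in IgM, against 195, 198 and 198 in IgG1 libraries, which did not overlap (log2 -0.46, adjusted p = 0.104 with limma, and -0.53 with adjusted p = 0.0854 after the trends were removed). Timm17a was at 153, 136 and 161 in IgM, against 130, 186 and 161 in IgG1 libraries. These groups overlapped. Its log2 fold change was -0.073 as deposited and -0.54 (adjusted p = 0.114) with the trends removed, where its length was that of a single GENCODE transcript of 7280 nt.

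Timm44, which tethers the matrix motor to the channel, had the largest positive difference of the set. It was at 17.5, 21.1 and 22.0 FPKM in IgM, against 19.5, 11.5 and 5.50 in IgG1 libraries, so IgG1 library 1 lay within the IgM range and the other IgG1 libraries below it (log2 0.83, SE 0.38, adjusted p = 0.221 with limma, and 0.86 with the trends removed). Timm21, which in yeast links TIM23 to the TOM complex, was at 113, 96.5 and 90.7 in IgM, against 98.6, 97.8 and 74.9 in IgG1 libraries (log2 0.15, adjusted p = 0.639, and -0.076 with the trends removed). Summed over its 6 genes, the TIM23 complex took 0.102%, 0.101% and 0.108% of all FPKM in IgM, against 0.104%, 0.108% and 0.1001% in IgG1 libraries. The shares overlapped.

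Of 9 tested genes listed with the TOM complex, 0 passed in either direction. The list includes Tomm34, whose product is a cytosolic co-chaperone. At an unadjusted p under 0.05 with limma, 4 of 9 were lower and 1 higher in IgM, against 11.9% and 10.2% of all tested genes. Tomm20, the presequence receptor, had the widest difference. It was at 19.8, 27.2 and 22.6 FPKM in IgM, against 29.7, 47.4 and 38.0 in IgG1 libraries, without overlap (log2 -0.69, SE 0.23, adjusted p = 0.102, and -0.78 with adjusted p = 0.0985 after the trends were removed). Tomm70a, the receptor that carrier precursors reach with cytosolic chaperones, went the other way, at 25.7, 23.1 and 26.4 in IgM, against 18.2, 19.6 and 14.0 in IgG1 libraries. Its log2 fold change of 0.52 (adjusted p = 0.214) was 0.090 with the trends removed, and its transcript of 5964 nt is long. The ratio of Tomm70a to Tomm20 was 1.29, 0.850 and 1.17 in IgM, against 0.613, 0.415 and 0.369 in IgG1 libraries, and did not overlap.

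The small stabilising subunits Tomm5, Tomm6 and Tomm7 lay close together in level. Tomm5 was at 114, 129 and 131 FPKM in IgM, against 172, 159 and 167 in IgG1 libraries, without overlap (log2 -0.41, SE 0.13, adjusted p = 0.0757 with limma). Tomm7 was at 102, 128 and 109 in IgM, against 136, 169 and 149 in IgG1 libraries, also without overlap (log2 -0.42, adjusted p = 0.110). Tomm6, which shares exons with its antisense gene Tomm6os, was at 76.0, 96.0 and 86.8 in IgM, against 112, 91.0 and 137 in IgG1 libraries, which overlapped. With the trends removed the log2 fold changes of Tomm5, Tomm6 and Tomm7 were -0.20, -0.056 and -0.44, so that Tomm7, with 1125 nt the longest of the 3, alone kept its size.

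The channel gene Tomm40 was at 67.1, 93.5 and 65.2 FPKM in IgM, against 105, 93.6 and 80.1 in IgG1 libraries, with overlapping groups (log2 -0.31, 95% interval -0.70 to 0.08). Its log2 fold change was -0.051 with the trends removed (adjusted p = 0.919 with limma). Tomm22, the central receptor, was at 116, 133 and 133 in IgM, against 143, 155 and 164 in IgG1 libraries, without overlap (log2 -0.27, adjusted p = 0.242 with limma). Tomm40l, a paralog of Tomm40, was the lowest of the set, at 10.4 ± 2.22 in IgM and 14.5 ± 6.11 FPKM in IgG1 cells (SD, n = 3 each). Tomm34, a cytosolic co-chaperone, was at 17.0 ± 4.57 in IgM and 17.5 ± 2.71 FPKM in IgG1 cells (SD, n = 3 each). The groups of both genes overlapped, with log2 fold changes of -0.36 and -0.060.

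**Figure D4:**
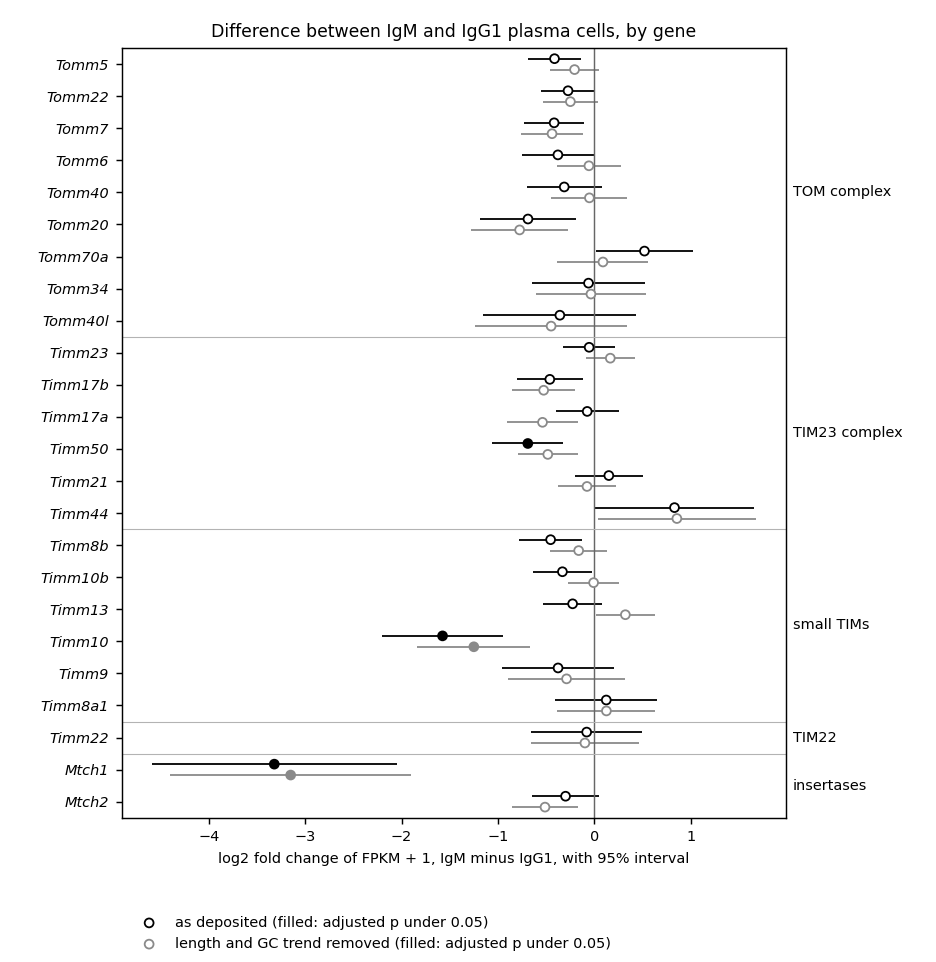
Log2 fold change (IgM minus IgG1 of FPKM + 1) of each import gene with its 95% interval, from the values as deposited (black) and after removal of the length and GC trends (grey); filled points have an adjusted p under 0.05. Mtch1 and Timm10 are filled in both, Timm50 in black alone, and Timm44 and Tomm70a are the genes farthest to the right of 0 in black.

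The 9 ratios computed between partners or paralogs were chosen with the genes' values known, and they reuse the levels described above. No share over other gene pairs was computed to set beside their count. Of these ratios, 5 did not overlap between the isotypes and 4 did. Besides those given, the ratio of Timm44 to Timm23 was 0.0709, 0.0816 and 0.0742 in IgM, against 0.0636, 0.0424 and 0.0216 in IgG1 libraries, and that of Tomm20 to Tomm22 was 0.171, 0.204 and 0.169 in IgM, against 0.208, 0.305 and 0.231 in IgG1 libraries. Those of Timm8b and Timm8a1 to Timm13, of Timm17b to Timm17a and of Timm50 to Timm23 overlapped. Summed over the 24 genes, import transcripts came to 1840, 2115 and 2042 FPKM in IgM, against 2495, 2681 and 2606 in IgG1 libraries. As a share of all FPKM this was 0.252%, 0.262% and 0.270% in IgM, against 0.292%, 0.305% and 0.285% in IgG1 libraries, which did not overlap. These shares include Mtch1 and were not corrected for the length trend. Import transcripts were short, with a median of 1563 nt against 2488 nt for all tested genes.

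Of 25 tested genes outside the set and the carriers, 2 (8.00%) were lower in IgM and 0 higher, against 4.26% and 1.76% of all tested genes, with a median of -0.25. Both belong to the motor and inner membrane list of 9. Romo1, a small inner membrane protein of TIM23, was at 240, 265 and 261 FPKM in IgM, against 401, 368 and 437 in IgG1 libraries (log2 -0.65, SE 0.11, adjusted p = 0.00923 with limma). Pam16, a regulator of the matrix motor, was at 120, 144 and 134 in IgM, against 204, 193 and 182 in IgG1 libraries (-0.54, SE 0.13, adjusted p = 0.0294). Neither gene's groups overlapped, but both calls ended with the trends removed (-0.11 and -0.12, adjusted p = 0.650 and 0.677) and when IgM library 1 was left out (adjusted p = 0.0559 and 0.157). With any 1 library left out, Romo1 kept its call in 5 of 6 fits and Pam16 in 1 of 6. Dnajc15, a motor co-chaperone, was called only once the trends were removed (-0.64 with adjusted p = 0.103 before and -1.07 with adjusted p = 0.0275 after), and was chosen after its values were seen.

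The other partner lists had 0 calls with limma in either direction: outer membrane sorting (3 tested, median -0.29), intermembrane oxidation (3, 0.11), the peptidases that cut presequences and inner membrane proteins (6, -0.22), insertion from the matrix (1, -0.50) and matrix folding (3, -0.40). At an unadjusted p under 0.05, 1 peptidase gene was higher and 1 matrix folding gene lower in IgM, in lists too short to read against the 10.2% and 11.9% of all tested genes. Of the abundant genes, Samm50, the channel of the sorting machinery, averaged 130 ± 4.61 in IgM and 156 ± 12.5 FPKM in IgG1 cells (SD, n = 3 each), without overlap (log2 -0.25, adjusted p = 0.262 with limma, and -0.47 with adjusted p = 0.0506 after the trends were removed). The matrix chaperonin genes pointed in opposite directions, Hspe1 at 145 ± 25.2 in IgM and 200 ± 26.6 in IgG1 cells (log2 -0.47, adjusted p = 0.107) and Hspd1 at 75.7 ± 13.1 in IgM and 63.2 ± 2.90 in IgG1 cells (0.24, adjusted p = 0.432; SD, n = 3 each). Mtx2 (-0.29), Chchd4 (0.11), Aifm1 (0.17), Immp1l (-0.27), Pmpcb (-0.43) and Oxa1l (-0.50) had overlapping groups.

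Of 34 tested carrier genes, 1 was lower and 1 higher in IgM (2.94% each) and the median was -0.041. Slc25a5, which encodes an ADP/ATP carrier and was the most abundant, was at 826, 1004 and 920 FPKM in IgM, against 1125, 1310 and 1285 in IgG1 libraries (log2 -0.44, SE 0.11, adjusted p = 0.0387 with limma). Slc25a25, an ATP-magnesium and phosphate carrier, was at 16.3, 8.14 and 12.2 in IgM, against 5.20, 3.51 and 1.19 in IgG1 libraries (1.69, SE 0.45, adjusted p = 0.0480). For neither gene did the groups overlap. Both missed the threshold with the trends removed (-0.40 and 1.61, adjusted p = 0.0629 and 0.0814) and without IgM library 1 (0.173 and 0.237). Over the 6 fits with 1 library left out, Slc25a5 passed in 2 and Slc25a25 in 1. The carriers, as clients of the small TIMs and TIM22, were thus called at shares near the background of 4.26% and 1.76%.

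**Figure D5:**
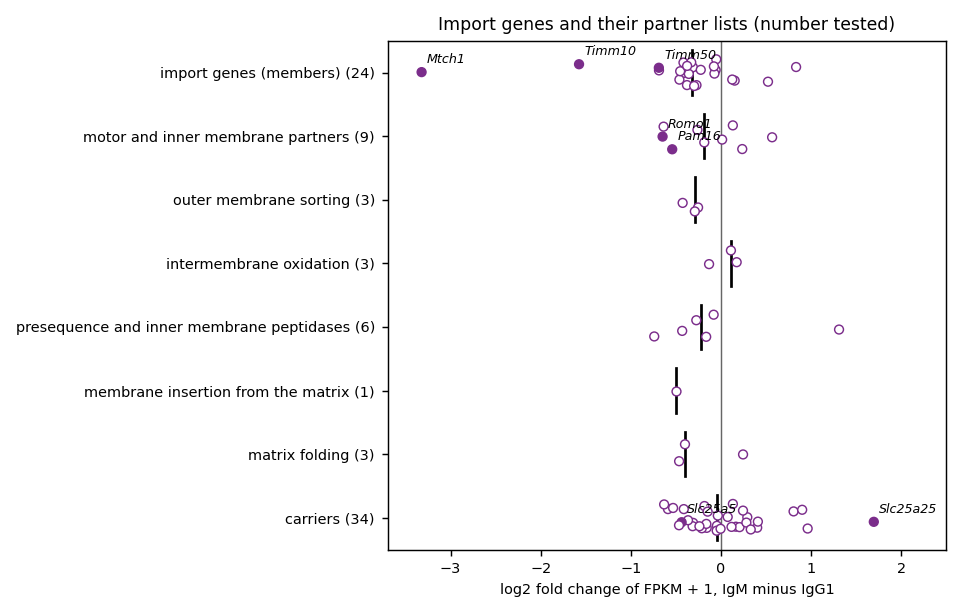
Log2 fold change (IgM minus IgG1) of the import genes and of each partner list, 1 point per gene with the number tested in brackets, filled where the adjusted p was under 0.05 and with a bar at the median. The import genes centre at -0.32 and the carriers at -0.041, and Mtch1 and Timm10 are the points farthest left.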

How the data were processed

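RNA of 3 IgM and 3 IgG1 plasma cell libraries was analysed. SMART-Seq HT cDNA was tagmented with Nextera XT, per the labels' protocols. Alignment and quantification tools named in the submitters' processing notes are Cufflinks 2.2.1, Cuffdiff, Bowtie2 2.3.5.1 and TopHat2 2.1.1, on mm10. Which annotation and which scaling of libraries were used is not given in the sources used here. Per the file headers, the authors deposited FPKM, with 1 value per symbol.

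FPKM were used as deposited. Genes with FPKM of at least 1 in at least 3 libraries were tested as log2(FPKM + 1), a scale that understates changes of low genes, with limma 3.58.1 in R 4.3.3 (intensity trend, two-sided, Benjamini-Hochberg over 9087 genes). Residuals over log length and GC content (GENCODE vM21, natural splines with 4 degrees of freedom, 96.5% of genes) gave the trend-removed values. The fit was also run on simulated normal values whose spread was set by mean level alone. These values held no length trend and no spread particular to single genes, so the simulation cannot speak to either.

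The genes, lists and tests were chosen with earlier results of these data known. All 24 import genes are described; a partner list gives its called genes or, with none, its 2 most abundant. As the labels name no animals, p-values reflect only how these libraries vary, possibly for technical reasons. Depth was not given; the step between low values pointed to roughly 15500000 to 17800000 fragments per library.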

Additional observations from a re-analysis of the deposited data

How the results depend on the processing

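The count of 3 import genes lower in IgM was 0 without the low-value filter (9 genes higher and 5 lower over the whole table) and 0 without the intensity trend (5 and 3), between 1 and 4 when 1 library was left out (1 without IgM library 1 or IgG1 library 2), and 2 to 4 under the other alternatives; 0 were higher under all 18. The set's median, between -0.43 and -0.25 with 1 library left out, was -0.091 when libraries were rescaled to the same sum without Jchain, which put the median of all genes at 0.25. Of all tested genes, 160 were higher and 387 lower in IgM, against 118 and 489 after median centring, 200 and 188 after quantile normalization, 393 and 177 after that rescaling, 81 and 179 with the length and GC trend removed, and from 30 and 78 to 251 and 394 with 1 library left out. Timm50 also missed the threshold with a pseudocount of 0.1 (adjusted p = 0.0507), after quantile normalization (0.0762) and after the rescaling (0.0845); Tomm5 gained it after median centring (-0.49, adjusted p = 0.0467) and Timm17b without IgM library 2 (-0.62, adjusted p = 0.0425).

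Of 432 values of import genes under the alternatives 17 changed sign, in 7 genes, none of them called: after quantile normalization Timm17a (0.11) and Timm23 (0.12); after the rescaling Timm13 (0.0053), Timm17a (0.16), Timm22 (0.14), Timm23 (0.18) and Tomm34 (0.16); with the trends removed Timm13 (0.32), Timm21 (-0.076) and Timm23 (0.17); and with 1 library left out Timm23 (range -0.13 to 0.023), Tomm34 (-0.25 to 0.095), Timm22 (-0.27 to 0.048), Timm17a (-0.21 to 0.045) and Timm8a1 (-0.035 to 0.26). The cause of these changes was not tested. With the replicate number as a block, the same 3 import genes were called (median -0.32, 432 genes lower and 154 higher over the table). Same-numbered libraries correlated at 0.101, -0.0315 and -0.000571 in their deviations, and IgM libraries 2 and 3 correlated best with a library of another number, so the block was not used.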

Other observations

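Within each isotype, the median import gene varied less between libraries than the median tested gene. The median SD of log2(FPKM + 1) over the 24 genes was 0.17 in IgM and 0.25 in IgG1 libraries, against 0.25 and 0.36 over all tested genes. The genes were not matched for level, on which this SD can depend. The smaller SD can therefore not be read as particular to import genes. The spread was uneven within the set. Mtch1 had the largest SD of the 24 in IgM cells, 1.61, larger than that of 99.8% of tested genes, and an SD of 0.41 in IgG1 cells, larger than that of 55.0%. Timm10 followed in IgM cells with an SD of 0.40, larger than that of 74.0%. Timm44 was the least even gene in IgG1 cells (SD 0.83 in IgG1, against 0.17 in IgM). Timm17b was nearly constant in IgG1 cells (SD 0.02, against 0.31 in IgM), and Timm22 in IgM cells (0.02, against 0.34 in IgG1).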
